A study of Mus musculus with 32 samples.

Results

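The genes described here are the guidance ligands and receptors that steer growing axons: the ephrins and Eph receptors, the semaphorins with their plexin and neuropilin receptors, the slits and robos, and the netrins with their receptors. They were found by matching the gene symbols of the deposited matrix against these family names, which gave 64 probe sets for 62 of the 17297 features tested. Of the 62 genes, 60 are guidance genes, 31 ligands and 29 receptors. Unc50 and Unc5cl matched by name alone and are given apart at the end. The netrin genes Ntn3 and Ntn5 stand in the matrix under older symbols, were not matched, and are given apart too.

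These families guide axons by contact and by gradients. Eph receptors are receptor tyrosine kinases that meet membrane-bound ephrins on neighbouring cells and mostly repel, with signals running in both directions. Class 3 semaphorins are secreted and most act through neuropilins paired with A-type plexins, whereas the other vertebrate classes are held at the membrane and act mainly through plexins directly. Slits repel axons through robo receptors, and netrin 1 attracts through Dcc or repels through Unc5 receptors. In the adult brain many of these genes are made by neurons, and several are also used by glia, vessels and immune cells.

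The series profiled malignant gliomas of 3 mouse models and normal brain with 32 Affymetrix mouse expression arrays, 1 per tissue RNA sample. Set Z1 held 9 gliomas of hGFAP-cre;p53KO/+;Nf1+/flox mice, called cis p53/Nf1 gliomas after the conditional cis mutation that the design text names, and 3 forebrains. Set Z2 held 9 gliomas of hGFAP-cre;p53flox/flox mice (p53 gliomas), 4 of hGFAP-cre;p53flox/flox;Nf1KO/+ mice (p53 Nf1KO gliomas, with a germline Nf1 mutation), 4 forebrains and 3 cerebella, and the control tissue was wild-type per the extraction protocol. All gliomas carry hGFAP-cre, a Cre recombinase under the human GFAP promoter, and the controls are not stated to carry it. The labels give no ages, do not say whether the arrays of a group come from separate animals, and do not say what Z1 and Z2 stand for. If arrays shared a source, the p-values would measure only the spread between these arrays.

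Values are deposited log2 expression values, and array medians lay at 8.48 to 8.57 in Z1 and 6.90 to 7.06 in Z2, so each glioma model was compared only with forebrain of its own set. A gene was called higher or lower where its limma p, adjusted by Benjamini and Hochberg's method across the 17297 features, was under 0.05. Differences are given on the log2 scale with their standard error. That error and the p rest on a spread pooled over all 6 groups of both sets, not on that of the compared groups alone. Marker genes followed the tissue labels: the mean of 8 cerebellar markers was 9.49 to 11.13 in cerebellum and 6.51 to 7.56 in Z2 forebrain, and the mean of 6 forebrain markers was 3.97 to 4.40 and 7.37 to 9.20. Of the 6 forebrain markers, 4 were also called lower in cis p53/Nf1 gliomas (median -2.35). In p53 gliomas 1 was (median -1.26) and in p53 Nf1KO gliomas 0 (median -0.74). The part of brain region in the guidance gene differences was not tested. All 6 markers of dividing cells were called higher in each of the 3 glioma models, and of 6 oligodendrocyte progenitor markers 6, 6 and 5 were higher in cis p53/Nf1, p53 and p53 Nf1KO gliomas. The library labelled p53 glioma 1 stood apart, with a dividing-cell marker mean of 5.30 against 8.42 to 10.15 in the other 8 p53 gliomas and a neuron marker mean of 11.07 against 6.39 to 10.22. Of the targeted genes, Nf1 differed from forebrain by -0.64 ± 0.18 (adjusted p = 0.0279) and Trp53 by -0.77 ± 0.22 (adjusted p = 0.031) in p53 Nf1KO gliomas, and neither was called in the other models. Which exons these probe sets read was not given in the sources used here, so they check the genotypes only in part.

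Promoters are shown for 4 members on which the results turn. Epha7 had the largest difference of any member, Sema6b and Sema4c were the members called in all 3 glioma models, and Sema5b was higher without overlap of arrays in both larger models. The sequences are from RefSeq (build GRCm38.p6), run 5′ to 3′ along the gene's strand from 250 bases before to 50 after the first listed start, and capitals mark GC boxes (GGGCGG) and CCAAT boxes (CCAAT), each on either strand. Epha7 lies at chr4:28812881-28813180 (plus strand), Sema6b at chr17:56140294-56140593 (minus strand), Sema4c at chr1:36558332-36558631 (minus strand) and Sema5b at chr16:35541112-35541411 (plus strand).
Epha7: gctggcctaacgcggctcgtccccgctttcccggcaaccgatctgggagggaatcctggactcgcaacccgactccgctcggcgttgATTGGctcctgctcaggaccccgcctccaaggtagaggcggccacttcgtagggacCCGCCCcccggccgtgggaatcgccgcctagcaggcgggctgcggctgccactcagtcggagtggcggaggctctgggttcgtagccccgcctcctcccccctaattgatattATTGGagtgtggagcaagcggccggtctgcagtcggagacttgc
Sema6b: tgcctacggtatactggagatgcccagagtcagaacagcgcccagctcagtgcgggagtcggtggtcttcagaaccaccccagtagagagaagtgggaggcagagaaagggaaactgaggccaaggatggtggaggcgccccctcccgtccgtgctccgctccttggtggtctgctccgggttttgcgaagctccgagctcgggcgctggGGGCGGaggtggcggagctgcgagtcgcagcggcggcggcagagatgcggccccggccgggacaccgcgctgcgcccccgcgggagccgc
Sema4c: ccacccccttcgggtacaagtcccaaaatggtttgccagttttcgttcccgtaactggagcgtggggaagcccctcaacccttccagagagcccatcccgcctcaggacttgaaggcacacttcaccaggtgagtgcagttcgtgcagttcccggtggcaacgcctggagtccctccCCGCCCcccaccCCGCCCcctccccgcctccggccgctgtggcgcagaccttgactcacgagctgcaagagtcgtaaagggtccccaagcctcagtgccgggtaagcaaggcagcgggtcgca
Sema5b: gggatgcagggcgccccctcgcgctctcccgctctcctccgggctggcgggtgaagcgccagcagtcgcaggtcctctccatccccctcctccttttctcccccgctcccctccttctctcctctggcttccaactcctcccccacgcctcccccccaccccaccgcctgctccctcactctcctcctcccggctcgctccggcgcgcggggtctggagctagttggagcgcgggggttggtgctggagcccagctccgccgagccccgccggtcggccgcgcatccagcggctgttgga
The Epha7 window held 1 GC box and 2 CCAAT boxes, Sema6b 1 GC box, Sema4c 2 GC boxes, and Sema5b held neither motif. Promoter sequences were matched for 51 of the 60 guidance genes. A GC box stood in 37 of these 51 windows (72.5%) and in 35.9% of all 27025 promoters of the table, while CCAAT stood in 15 (29.4%) against 37.9%. The table was not limited to the genes measured here, so the 2 sets of promoters are unlike, and no enrichment was tested. TATAAA was found in 2 of 51 windows (3.92%) against 14.2% of all promoters. CACGTG (5.88% against 7.24%), CAGCTG (11.8% against 16.1%) and TGACGTCA (1.96% against 1.88%) were also searched on both strands. In the printed windows no marked box overlaps another, and a match describes the letters only.

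The first comparison asked how the guidance genes of cis p53/Nf1 gliomas differed from Z1 forebrain. Of 60 genes, 28 were called (46.7%) against 42.1% of all features, so the share of calls as such was near the background. The split was not even: 21 genes were lower (35%, against 20.3% of all features) and 7 higher (11.7%, against 21.9%). The median difference was -0.48 over the guidance genes and -0.00 over all features. Of the lower genes, 15 had no overlap between arrays of the groups (25% of the 60 genes, against 15.6% of all features), and of the higher genes 6 (10%, against 16.5%). Of 31 ligands 11 were lower and 5 higher, and of 29 receptors 10 were lower and 2 higher. A difference of at least 2-fold was reached by 23 called genes (38.3%, against 22.2% of all features).

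**Figure D1:**
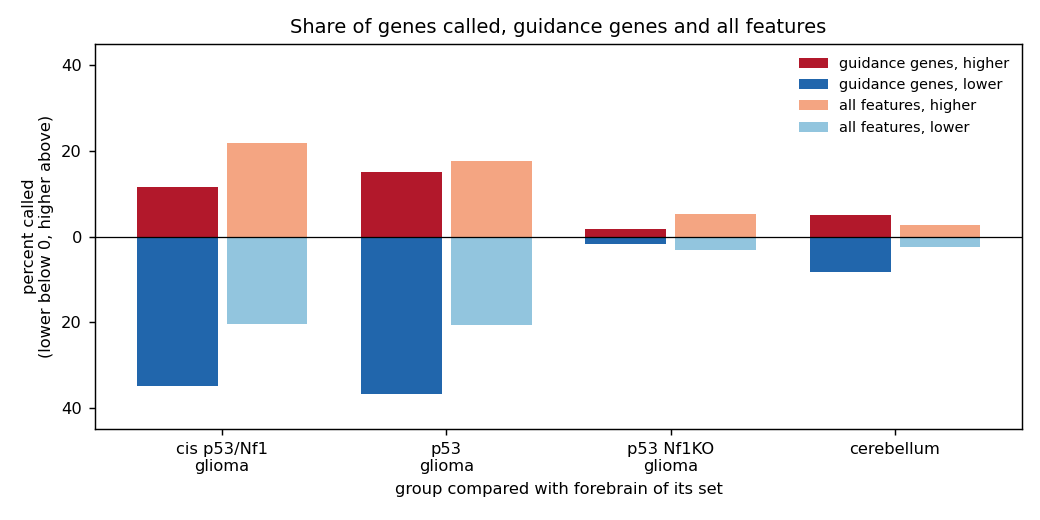
Percent of the 60 guidance genes (dark bars) and of all 17297 features (light bars) called higher (above 0) or lower (below 0) than forebrain of the same set in each of 4 groups. The share called lower was 35% and 36.7% in cis p53/Nf1 and p53 gliomas, against 20.3% and 20.6% of all features.

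EphA receptors, which bind the membrane-anchored A-type ephrins, made up most of the largest differences, and 5 of 8 were called lower. Epha7, a receptor that patterns cortical and thalamic connections, read 10.14, 10.23 and 9.42 in the 3 forebrains and 5.13, 5.56 and 6.56 (lowest, median, highest) in the 9 gliomas. All gliomas lay below all forebrains, and the difference was -4.31 ± 0.55 (adjusted p = 6.36e-07). The glioma mean lay above 6.67% of all probe sets, near the low end of the arrays. Epha4, which binds ephrins of both classes and acts in corticospinal midline guidance, read 10.91, 10.59 and 10.74 in forebrain and 6.82, 7.42 and 8.78 in gliomas. The groups did not overlap, with a difference of -3.18 ± 0.45 (adjusted p = 2.32e-06). Epha6 read 8.49, 9.13 and 7.42 in forebrain and only 5.42, 5.54 and 5.69 in gliomas, again without overlap (-2.78 ± 0.44, adjusted p = 1.23e-05). The gliomas varied little in this gene (SD 0.09, n = 9), and their mean lay above 5.01% of all probe sets, at the low end of the arrays. The same holds for Epha3, whose glioma mean lay above 4.52% of probe sets. Epha3 (-1.18 ± 0.25) and Epha8 (-0.84 ± 0.27) were lower as well, also without overlap. Epha5 was not called (-0.57 ± 0.44, adjusted p = 0.331), nor was Epha1 (-0.07 ± 0.12).

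Epha2 was the EphA receptor that went the other way, higher by 0.69 ± 0.22 (adjusted p = 0.0144). Its preferred ligand, the GPI-anchored Efna1, was higher too. Efna1 read 6.59, 6.56 and 6.80 in forebrain and 7.15, 7.72 and 8.68 in gliomas, a difference of 1.07 ± 0.25 without overlap (adjusted p = 0.00101). The other 3 A-type ephrins were not called. Of the EphB receptors only Ephb6, a family member without kinase activity, was called: it read 10.81, 10.04 and 11.01 in forebrain and 6.58, 8.41 and 8.92 in gliomas, without overlap (-2.51 ± 0.54, adjusted p = 0.000432). The transmembrane ligands Efnb3 (-1.91 ± 0.41, adjusted p = 0.000423), which marks the spinal midline, and Efnb2 (-1.27 ± 0.33, adjusted p = 0.00219) were lower, and Efnb1 was not called (0.07 ± 0.25).

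**Figure D2:**
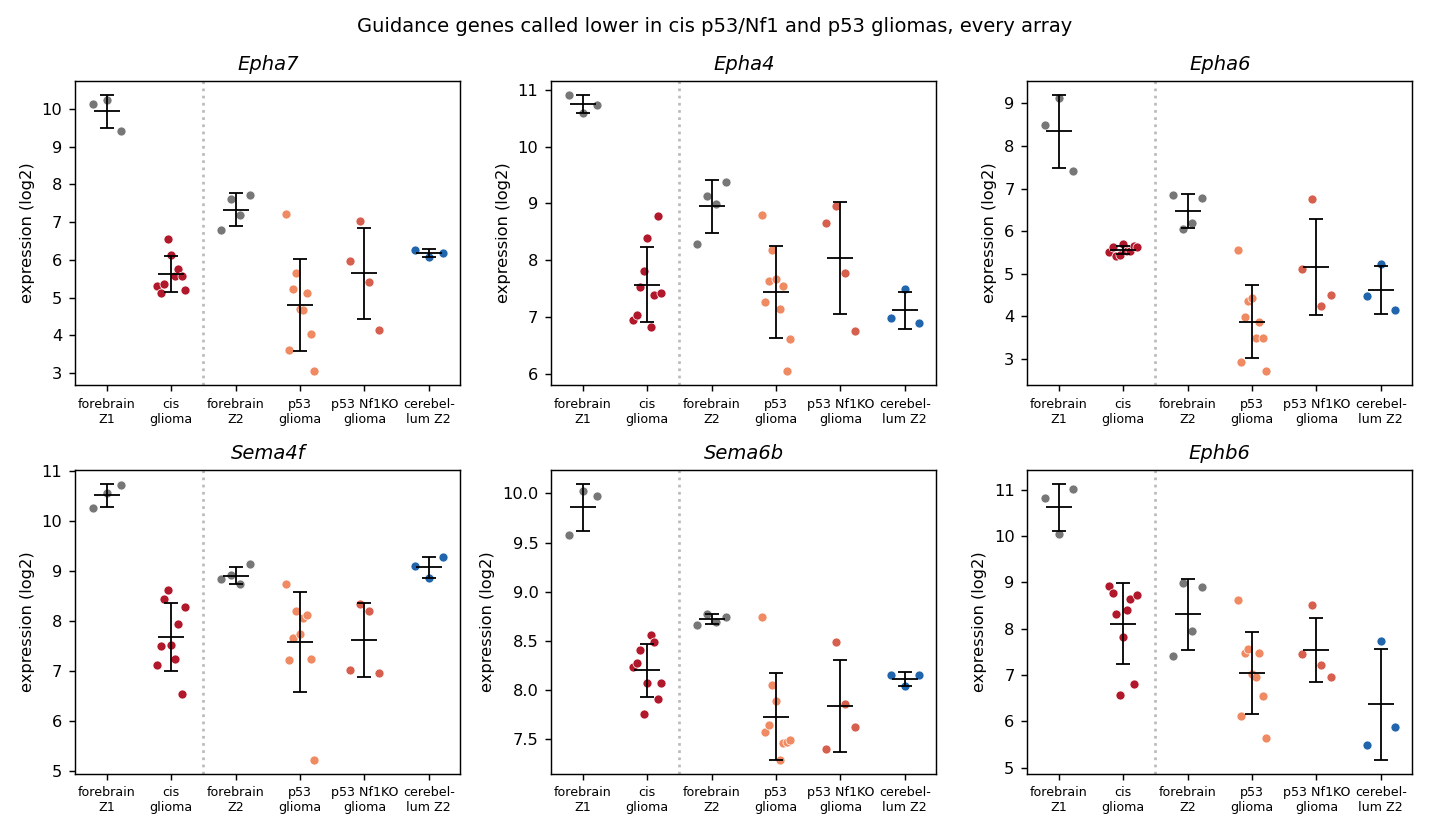
Log2 expression in every array for 6 guidance genes called lower in both cis p53/Nf1 and p53 gliomas; points are arrays, bars the group mean and SD, and the dotted line parts set Z1 (left) from set Z2 (right), whose scales differ. The 9 cis p53/Nf1 gliomas lie below all 3 Z1 forebrains in each panel, and the highest p53 glioma reaches the Z2 forebrain range for Epha7, Epha4, Sema6b and Ephb6.

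Semaphorins moved in both directions. Sema4f, a transmembrane class 4 semaphorin, read 10.27, 10.56 and 10.72 in forebrain and 6.54, 7.53 and 8.62 in gliomas. The groups did not overlap and the difference was -2.82 ± 0.47 (adjusted p = 1.87e-05). Sema4a (-1.86 ± 0.40, adjusted p = 0.00046) and the plexin A ligand Sema6b (-1.66 ± 0.22, adjusted p = 1.17e-06) fell without overlap. The secreted Sema3c (-1.46 ± 0.42) and Sema3f (-0.72 ± 0.22), the transmembrane Sema5a (-1.23 ± 0.47) and the GPI-anchored Sema7a (-0.78 ± 0.29) fell with some overlap of arrays. Both neuropilins, the ligand-binding partners for class 3 semaphorins, were lower: Nrp1 by -1.16 ± 0.40 and Nrp2 by -1.01 ± 0.35 (adjusted p = 0.0206 and 0.0186). Among 7 plexins, Plxna4 was lower (-1.15 ± 0.29, adjusted p = 0.00202) and Plxna3 higher (0.67 ± 0.22, adjusted p = 0.0163).

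In all, 3 semaphorins were higher, each without overlap. Sema4c, a ligand of plexin B2, read 8.31, 8.22 and 8.44 in forebrain and 9.30, 10 and 11.09 in gliomas (1.68 ± 0.31, adjusted p = 8.11e-05). Sema3d, a secreted ligand, read 6.87, 6.74 and 6.81 in forebrain and 7.01, 8.73 and 9.42 in gliomas (1.73 ± 0.55, adjusted p = 0.0119). Sema5b, a transmembrane protein with thrombospondin repeats, read 7.56, 7.98 and 7.81 in forebrain and 8.25, 9.10 and 9.52 in gliomas (1.26 ± 0.31, adjusted p = 0.00172). All 9 gliomas were above all 3 forebrains in these genes, with the lowest Sema3d glioma close to them.

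The slit and netrin genes split by gene. Ntn1, the secreted attractant of commissural axons, had the largest positive difference of any member, reading 7.44, 7.11 and 7.71 in forebrain and 8.53, 9.09 and 10.22 in gliomas (1.82 ± 0.33, adjusted p = 6.33e-05). Its groups did not overlap. Of its receptors only Unc5a was called, lower by -1.85 ± 0.41 without overlap (adjusted p = 0.000567), while Dcc (0.08 ± 0.44) and Neo1 (-0.20 ± 0.23) were not called. The repellents Slit1 (-1.77 ± 0.37, adjusted p = 0.000339) and Slit3 (-1.18 ± 0.33, adjusted p = 0.004) were lower without overlap. Slit2 was spread more widely than either: it read 10.64 to 11.10 in forebrain, 10.91 to 11.77 in 6 gliomas, and 6.59, 7.37 and 8.85 in gliomas 4, 8 and 9, so the mean difference of -0.69 ± 0.84 (adjusted p = 0.556) averages over unlike gliomas. Robo1 (-0.70 ± 0.39) and Robo4 (0.31 ± 0.34) were not called.

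All 8 neuron markers were called lower in these gliomas, with a marker mean of 7.24 to 9.58 against 12.50 to 12.68 in forebrain, and all 6 oligodendrocyte progenitor markers higher, at 11.12 to 13.35 against 9.56 to 10.14. Of the astrocyte markers 4 of 5 were lower (median -1.88) and of the oligodendrocyte markers 4 of 6 (median -2.24), while 4 of 8 microglia and macrophage markers were higher (median 1.00). In such bulk tissue, fewer cells of a type and less RNA per cell cannot be told apart, and the part of these markers' cell types in the guidance gene differences was not tested. Leaving out 1 array at a time gave 17 to 22 lower and 5 to 9 higher members, and 20 of the 28 calls held in every such fit. The fewest, 17 lower and 5 higher, came without Z1 forebrain 3.

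For p53 gliomas against Z2 forebrain, 31 of 60 guidance genes were called (51.7%, against 38.3% of all features). Again the lower side held more: 22 genes were lower (36.7%, against 20.6%) and 9 higher (15%, against 17.7%), with a median of -0.43 against -0.04 over all features. Only 4 of the lower and 3 of the higher genes had no overlap of arrays (6.67% and 5% of the 60, against 4.25% and 4.95% of all features). With p53 glioma 1 set aside these became 11 and 8 (against 13% and 12.5% of all features), a count chosen after its values were seen. A fit without that library called 23 genes lower and 12 higher. The shares of all features called in that fit were not set beside these counts. At least 2-fold differences were seen in 21 called genes of the fit with all arrays (35%, against 16.6% of all features).

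EphA receptors again held the largest falls, with 6 of 8 lower. Epha6 read 6.85, 6.05, 6.20 and 6.77 in the 4 forebrains and 2.71, 3.87 and 5.55 (lowest, median, highest) in the 9 gliomas. No array overlapped, and the difference was -2.60 ± 0.40 (adjusted p = 3.13e-05). Epha7 read 6.78, 7.62, 7.18 and 7.73 in forebrain and 3.05, 4.71 and 7.21 in gliomas, the highest being p53 glioma 1, which lay within the forebrain range (-2.52 ± 0.49, adjusted p = 0.000377). Epha8, known from midbrain visual maps, read 5.10, 5.29, 6.02 and 5.26 in forebrain and 3.82, 4.01 and 4.81 in gliomas, without overlap (-1.28 ± 0.25, adjusted p = 0.000307). Epha4 (-1.51 ± 0.40), Epha5 (-1.21 ± 0.40) and Epha3 (-0.73 ± 0.22) were lower with overlap, and Epha2 was higher (0.79 ± 0.20, adjusted p = 0.0034). The EphB receptors Ephb6 (-1.27 ± 0.49) and Ephb1 (-0.92 ± 0.35) were lower at adjusted p = 0.0418 and 0.04.

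Among the ephrins, Efna1 read 4.54, 4.46, 4.50 and 4.83 in forebrain and 4.96, 5.85 and 6.17 in gliomas. Every glioma was above every forebrain, by 1.14 ± 0.23 on average (adjusted p = 0.000439). Efnb3 (-1.67 ± 0.37, adjusted p = 0.00117), Efna5 (-1.11 ± 0.29, adjusted p = 0.0035) and Efnb2 (-0.94 ± 0.29, adjusted p = 0.0133) were lower with overlap.

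Sema4c and Sema5b were the semaphorins higher without overlap. Sema4c read 5.68, 5.82, 5.56 and 5.79 in forebrain and 6.18, 7.04 and 8.21 in gliomas (1.40 ± 0.28, adjusted p = 0.000488). Sema5b read 4.45, 5.09, 4.69 and 5.15 in forebrain and 5.24, 6.44 and 7.12 in gliomas (1.35 ± 0.28, adjusted p = 0.000706). Sema3d (1.98 ± 0.49) and Sema4d (0.47 ± 0.14), whose product is the plexin B1 ligand, were higher with overlap. On the lower side, Sema4f read 8.84, 8.92, 8.75 and 9.14 in forebrain and 5.23, 7.75 and 8.74 in gliomas, the groups missing each other narrowly (-1.33 ± 0.42, adjusted p = 0.0142). Sema3e (-1.29 ± 0.44), Sema4a (-1.12 ± 0.36), Sema6b (-0.98 ± 0.20) and Sema7a (-0.78 ± 0.26) were lower with overlap.

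Of the plexins, 5 of 7 were called, Plxna1 and Plxna2 not in every fit that left out 1 array. Plxnb3, a receptor for Sema5a known in oligodendrocyte lineage cells, had the largest positive difference: it read 5.58, 5.59, 6.78 and 6.05 in forebrain and 5.75, 8.54 and 8.86 in gliomas (2.07 ± 0.51, adjusted p = 0.00252). The 1 overlapping array was p53 glioma 1, and the other 8 read 7.69 to 8.86. Plxna4, a receptor for class 3 and class 6 semaphorins, read 6.93, 6.83, 6.67 and 6.88 in forebrain and 4.75, 5.75 and 6.65 in gliomas, without overlap (-1.14 ± 0.26, adjusted p = 0.00143). Plxna3 was higher (0.75 ± 0.20), and Plxna1 (-0.35 ± 0.13) and Plxna2 (-0.74 ± 0.29) were lower by small amounts. Ntn1 was higher (1.23 ± 0.30, adjusted p = 0.00229), and Unc5a (-1.29 ± 0.37), Slit1 (-1.09 ± 0.34) and Slit3 (-1.08 ± 0.29) were lower. Slit2 read 10.05 to 10.49 in forebrain and 6.83, 9.27 and 9.76 in gliomas, without overlap but not called (-1.38 ± 0.76, adjusted p = 0.149).

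**Figure D3:**
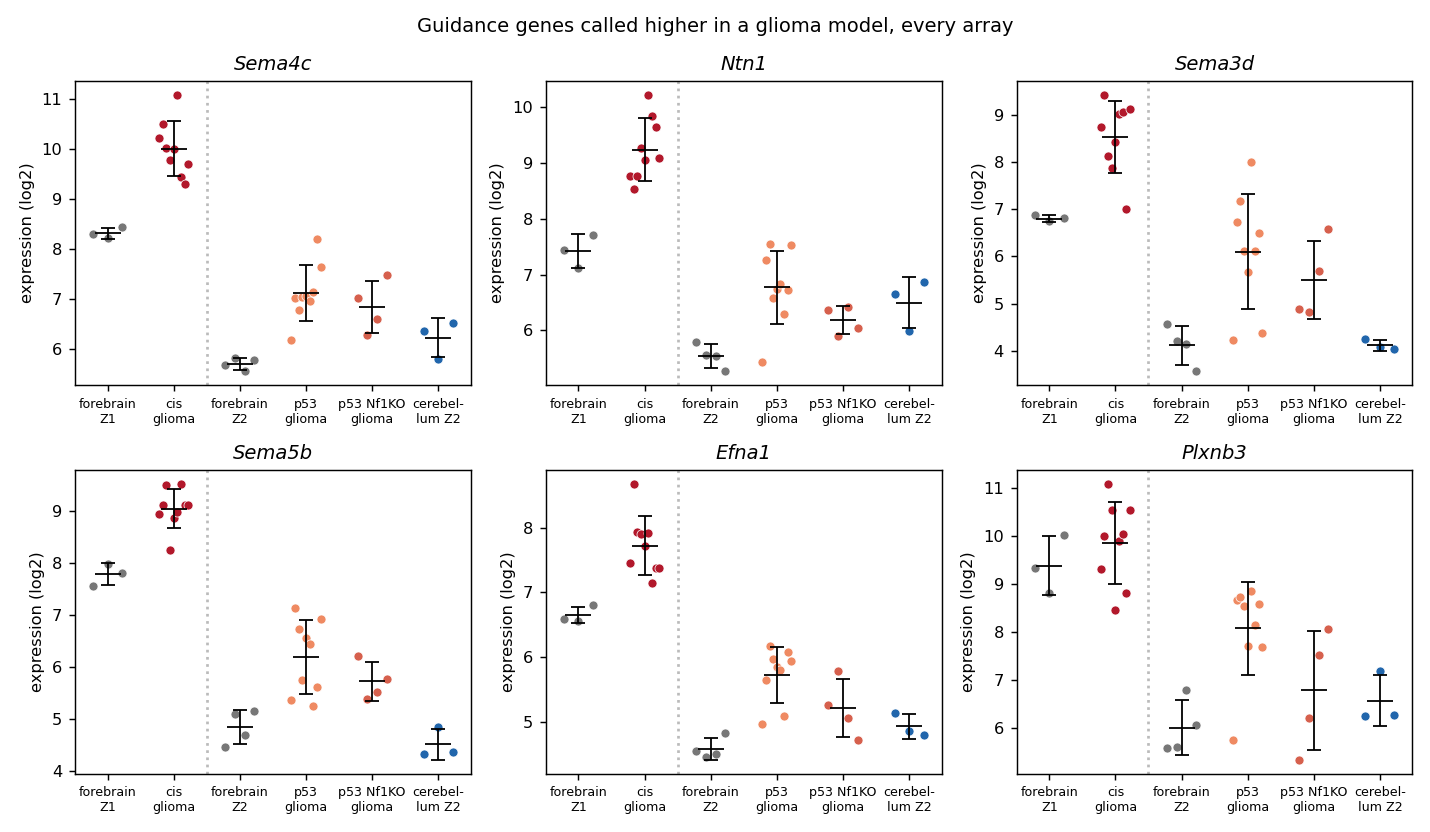
Log2 expression in every array for 6 guidance genes called higher in at least 1 glioma model, drawn as points with the group mean and SD; the dotted line parts set Z1 (left) from set Z2 (right), whose scales differ. Sema4c lies above forebrain in all 3 models, and in the Plxnb3 panel 8 of 9 p53 gliomas (7.69 to 8.86) lie above the Z2 forebrains.

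Here 6 of 8 neuron markers were called lower, with marker means of 6.39 to 11.07 against 10.65 to 11.17 in forebrain, and 5 of 8 microglia and macrophage markers higher, at 8.41 to 9.76 against 7.76 to 8.13. Their part in the guidance gene differences was not tested. The lower members moved unequally between arrays: their median difference from the forebrain mean was -0.16 in p53 glioma 1 and between -0.76 and -2.0 in the other 8. Leaving out 1 array at a time gave 16 to 23 lower and 9 to 12 higher members, and 22 of 31 calls held in every such fit.

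The 2 models compared so far have separate controls and can be set side by side. All 7 genes higher in cis p53/Nf1 gliomas were higher in p53 gliomas, where they were 77.8% of the higher members: Efna1, Epha2, Ntn1, Plxna3, Sema3d, Sema4c and Sema5b. Of the lower genes 16 were shared, 76.2% of the list in cis p53/Nf1 and 72.7% of that in p53 gliomas, and no gene was called in opposite directions. The share of all features called alike in both models was not counted, so these counts alone do not set the guidance genes apart. Across the 60 genes the differences in both models correlated with r = 0.885 (Spearman 0.906), against 0.822 over all features, and 51 had the same sign (85.0%, against 80.9%). Genes are not independent replicates, and all arrays of a group share their control mean. Of the 16 genes lower in both, 14 were further from forebrain in cis p53/Nf1 gliomas (median -1.81 against -1.20), and of the 7 higher genes 2 were (median 1.26 against 1.23). The p53 means include p53 glioma 1, where the members lower in p53 gliomas had a median difference of -0.16. How often all features lower in both models went further in cis p53/Nf1 gliomas was not counted.

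**Figure D4:**
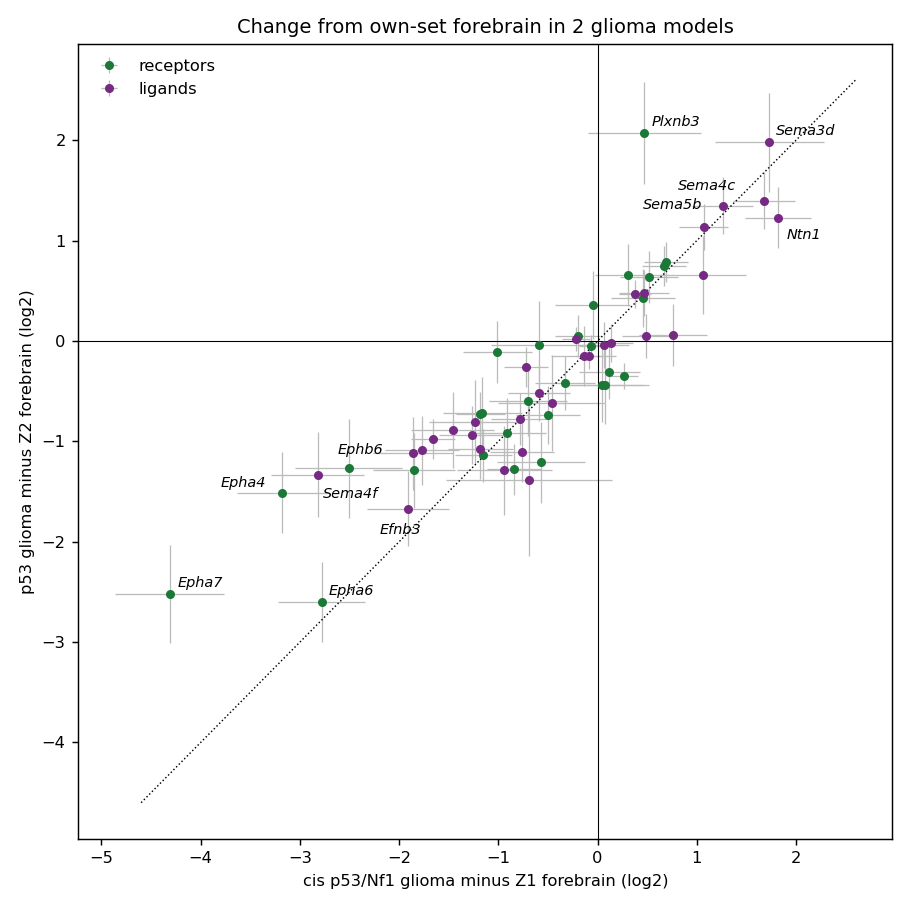
Difference from forebrain of the own set (log2, with standard errors as grey bars) for the 60 guidance genes in cis p53/Nf1 gliomas (x axis) and p53 gliomas (y axis), with receptors in green, ligands in purple and the dotted line at equal change. The differences in both models correlated (r = 0.885). Of the 16 genes called lower in both, 14 lie left of the line, among them Epha7 and Epha4, and Plxnb3 lies above it.

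When the 2 changes were tested against each other, no guidance gene was called in limma, against 1.75% of all features. An unadjusted p under 0.05 was found for 6 of the 60, and the share of all features under it was not counted. The lowest adjusted p was that of Plxna1 (0.61 ± 0.19, adjusted p = 0.101), a plexin for class 3 semaphorins that differed from forebrain by 0.27 ± 0.14 in cis p53/Nf1 and by -0.35 ± 0.13 in p53 gliomas. Epha7 (-1.79 ± 0.74, adjusted p = 0.22), Epha4 (-1.67 ± 0.60, adjusted p = 0.154), Plxnb3 (-1.61 ± 0.76, adjusted p = 0.303) and Sema4f (-1.50 ± 0.63, adjusted p = 0.231) had wider intervals. The spread of values within an array also differed between sets, with an SD of 2.01 to 2.12 in Z1 and 2.58 to 2.66 in Z2, which such a contrast does not remove.

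The 4 p53 Nf1KO gliomas were compared with the same Z2 forebrains as the p53 gliomas, so both results share those controls. Only 2 guidance genes were called (3.33%, against 8.27% of all features), 1 higher (1.67%, against 5.23%) and 1 lower (1.67%, against 3.04%). Neither overlapped between groups, as held for 4.87% of all features on the higher and 2.31% on the lower side, and Sema4c alone passed 2-fold (1.67%, against 4.67%). Sema4c read 7.02, 6.28, 6.60 and 7.48 in gliomas and 5.68, 5.82, 5.56 and 5.79 in forebrain, higher by 1.14 ± 0.33 (adjusted p = 0.0329). Sema6b read 7.40, 8.49, 7.86 and 7.62 in gliomas and 8.66, 8.77, 8.69 and 8.74 in forebrain, lower by -0.87 ± 0.24 (adjusted p = 0.0218). These were the only members called in all 3 models, and neither call held in every fit that left out 1 array. Sema4c was lost without glioma 1, glioma 4 or any 1 of the 4 forebrains (adjusted p = 0.061 to 0.15), and Sema6b without glioma 1, glioma 4, forebrain 2 or forebrain 4 (adjusted p = 0.051 to 0.094).

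The other members missed the threshold. The largest differences among them were Epha7 (-1.69 ± 0.58, adjusted p = 0.0654), Sema3d (1.37 ± 0.58, adjusted p = 0.132), Epha6 (-1.32 ± 0.47, adjusted p = 0.0749) and Sema4f (-1.28 ± 0.49, adjusted p = 0.0985). Glioma 2 of this group read nearest to forebrain in several genes, at 7.03 for Epha7, 6.76 for Epha6 and 6.63 for Slit1, where the other 3 read 4.14 to 5.98, 4.24 to 5.11 and 4.14 to 4.66. Without it 9 genes were called lower, among them Epha7 (-2.15, adjusted p = 0.017), Epha6 (-1.85, adjusted p = 0.0066), Unc5a (-1.63, adjusted p = 0.0089) and Slit1 (-1.53, adjusted p = 0.0041). The share of all features called lower in that fit was not set beside this count. Glioma 2 was singled out after these values were seen, so calls in these genes follow in part from that choice. Without glioma 1 or glioma 4 the fits called 0 guidance genes, and without glioma 3 they called 1 higher and 1 lower. Glioma 2 also had the lowest dividing-cell marker mean of its group, 7.44 against 8.22 to 9.88, and the highest neuron marker mean, 10.66 against 9.77 to 10.55. Forebrain neuron marker means were 10.65 to 11.17, the median difference of the 8 neuron markers was -0.76, and none was called in this model. The part of these markers in the result was not tested.

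Against p53 gliomas directly, no guidance gene was called in p53 Nf1KO gliomas in limma (0.145% of all features were). An unadjusted p under 0.05 was found for 9 of 60, and the share of all features under it was not counted. Epha6 had the lowest adjusted p (1.28 ± 0.40, adjusted p = 0.207), and Plxnb3 (-1.29 ± 0.51, adjusted p = 0.32) and Ntn4 (-1.0 ± 0.39, adjusted p = 0.32) read lower. Without p53 glioma 1, Epha6 (1.49, adjusted p = 0.0252) and Plxna3 (-0.72, adjusted p = 0.0329) passed.

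Epha4 was the only member whose change differed between cis p53/Nf1 and p53 Nf1KO gliomas (1.67% of the guidance genes, against 3.94% of all features). It differed from its forebrain by -3.18 ± 0.45 in the first and by -0.91 ± 0.47 in the second, where the 4 gliomas read 8.65, 8.96, 7.78 and 6.75 against 8.29, 9.14, 8.99 and 9.37 in forebrain and overlapped it. The difference of the changes was -2.27 ± 0.65 (adjusted p = 0.0451). It passed in 5 of 21 fits that left out 1 array. Of these 5, 1 left out p53 glioma 1, which is not part of this contrast. Epha7 (-2.62 ± 0.80, adjusted p = 0.0592) and Plxna1 (0.70 ± 0.21, adjusted p = 0.0552) lay just past the threshold.

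**Figure D5:**
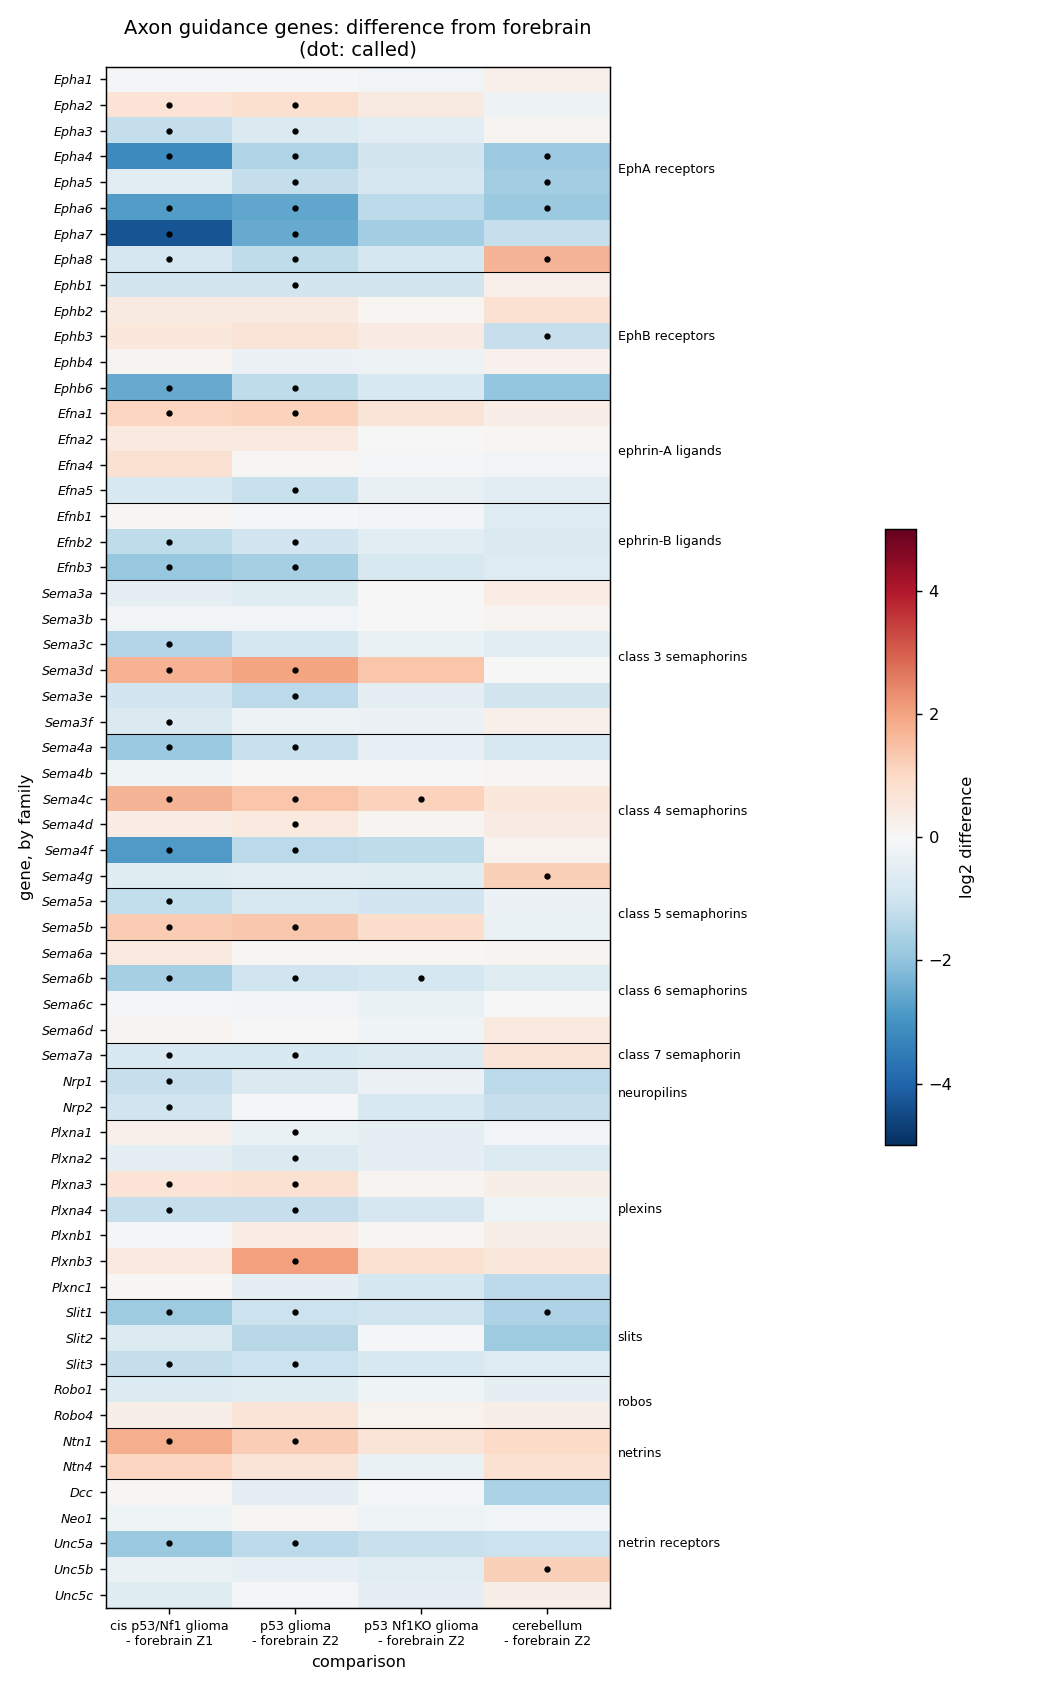
Log2 difference from forebrain of the own set for the 60 guidance genes (rows, by family) in the 3 glioma models and cerebellum (columns), blue for lower and red for higher, with a dot where the gene was called. The columns of cis p53/Nf1 and p53 gliomas hold 28 and 31 calls, that of p53 Nf1KO gliomas 2 and that of cerebellum 8.

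The 2 normal regions differed in 8 guidance genes (13.3%, against 5.15% of all features), and this comparison uses the same 4 forebrains too. In cerebellum 3 genes were higher (5%, against 2.76%) and 5 lower (8.33%, against 2.39%). All 8 differed at least 2-fold (13.3%, against 3.62%), and 1 higher and 5 lower genes had no overlap of arrays (1.67% and 8.33%, against 2.33% and 2.22%). Slit1 read 4.24, 4.71 and 4.40 in cerebellum and 6.07, 5.59, 6.01 and 6.24 in forebrain (-1.53 ± 0.43, adjusted p = 0.0324). Epha6 read 4.47, 5.23 and 4.14 in cerebellum (-1.85 ± 0.51, adjusted p = 0.0282), Epha4 read 6.98, 7.50 and 6.89 (-1.83 ± 0.51, adjusted p = 0.0325), and both lay below all 4 forebrains. Epha5, of which forebrain read 7.39, 7.22, 6.79 and 7.19, read 4.94, 6.52 and 4.75 in cerebellum (-1.75 ± 0.51, adjusted p = 0.0385). Ephb3 read 4.30, 5.11 and 4.40 in cerebellum and 5.30, 6.16, 5.18 and 6.44 in forebrain (-1.17 ± 0.33, adjusted p = 0.0327). None of these 5 genes overlapped between the regions.

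Epha8 was higher in cerebellum, at 7.83, 5.95 and 7.60 against 5.10 to 6.02 in forebrain, with overlap of 1 cerebellum (1.71 ± 0.31, adjusted p = 0.000812). The netrin receptor Unc5b, known for vessel guidance as well, read 6.45, 6.15 and 6.51 in cerebellum and 4.97, 4.96, 5.81 and 4.90 in forebrain, without overlap (1.21 ± 0.34, adjusted p = 0.0355). Sema4g was higher with overlap (1.18 ± 0.36, adjusted p = 0.0481). Cerebellum 2 read nearest to forebrain in Epha8, Epha5, Epha6, Ephb3 and Sema4g, and its cerebellar marker mean was 9.49 against 11.13 and 11.10. Without it, 9 genes were called lower and 4 higher, and without cerebellum 1, cerebellum 4 or forebrain 4 only Epha8 was called. Without forebrain 1 or forebrain 2 there were 3 calls, and without forebrain 3 there were 6. The shares of all features called in these fits were not set beside the counts. Epha8 was the 1 gene that passed in every such fit, but it missed the threshold when only cerebellum and forebrain were fitted (adjusted p = 0.0819).

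In all, 24 of the 60 guidance genes were called in no glioma model, among them Dcc, Neo1, Robo1, Robo4, Slit2, Unc5b, Unc5c, 4 of the 13 Eph receptors (Epha1, Ephb2, Ephb3 and Ephb4) and 3 of 4 class 6 semaphorins. The share of all features called in no glioma model was not counted. For several of these 24 genes the interval is wide, as for Slit2 and for Sema3a (-0.46 ± 0.54 in cis p53/Nf1 and -0.62 ± 0.48 in p53 gliomas). Others were measured closely: Sema4b differed by -0.22 ± 0.14, 0.02 ± 0.12 and 0.02 ± 0.15 and Epha1 by -0.07 ± 0.12, -0.05 ± 0.11 and -0.12 ± 0.12 in cis p53/Nf1, p53 and p53 Nf1KO gliomas.

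Beyond ligands and receptors, 98 of 108 listed genes of the signalling path were measured: effectors of semaphorins, Ephs, netrins and slits, other growth cone molecules, and regulators of the cytoskeleton. In cis p53/Nf1 gliomas 19 were higher (19.4%, against 21.9% of all features) and 34 lower (34.7%, against 20.3%). In p53 gliomas 16 were higher (16.3%, against 17.7%) and 28 lower (28.6%, against 20.6%). In p53 Nf1KO gliomas the numbers were 1 (1.02%, against 5.23%) and 4 (4.08%, against 3.04%), and in cerebellum 2 (2.04%, against 2.76%) and 6 (6.12%, against 2.39%). The median differences were -0.25, -0.15, -0.17 and -0.08. A pair of mediators that act below EphA4, Ngef (-4.03 ± 0.59) and the Rac inactivator Chn1 (-3.38 ± 0.50), had the lowest values in cis p53/Nf1 gliomas, with the adhesion molecule L1cam (-2.88 ± 0.28). Chn1 was lower in p53 gliomas too (-1.71 ± 0.45), with the membrane-bound netrin G1 gene Ntng1 (-2.05 ± 0.42) and the actin-binding Ablim3 (-1.81 ± 0.49).

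Mical1, an actin-oxidising enzyme that acts below plexins, led the higher side. It was called in all 3 models: 2.30 ± 0.27 in cis p53/Nf1 (adjusted p = 1.94e-07), 1.40 ± 0.24 in p53 and 1.15 ± 0.28 in p53 Nf1KO gliomas (adjusted p = 0.0128), each without overlap. In cis p53/Nf1 gliomas the Src-family kinases Yes1 (1.82 ± 0.44) and Fyn (1.65 ± 0.26) followed. In p53 gliomas these were Dpysl3 (1.27 ± 0.42), a semaphorin response mediator, and the Cdc42 effector kinase Pak4 (1.12 ± 0.34). The genes lower in p53 Nf1KO gliomas were the axonal adhesion gene Cntn2 (-1.18 ± 0.34), Rac3 (-1.08 ± 0.30), the actin regulator Wasf3 (-0.78 ± 0.23) and Cdk5 (-0.71 ± 0.20). In cerebellum Ngef (-2.69 ± 0.67), the ubiquitin ligase Pdzrn3 (-2.09 ± 0.58) and Lingo1 (-1.79 ± 0.54), a Nogo receptor partner, were lowest, and the hedgehog co-receptor Boc (1.56 ± 0.42) and the adaptor Nck1 (0.91 ± 0.24) were higher.

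A few values stand outside these counts. Nrp2 and Plxnc1 had a second probe set each. For Nrp2 it gave -1.13 in cis p53/Nf1 and -0.59 in p53 gliomas, where the set used gave -1.01 and -0.11, so the probe sets disagree in size in p53 gliomas. For Plxnc1 they gave 0.05 and -0.25 in cis p53/Nf1 gliomas. Unc5cl, matched by name alone, was lower in p53 gliomas (-0.43 ± 0.10, adjusted p = 0.00212), and Unc50 was not called in any comparison with forebrain. The netrin gene Ntn5 was lower in p53 gliomas (-1.07 ± 0.38, adjusted p = 0.029) and cerebellum (-1.62 ± 0.49, adjusted p = 0.0492), and Ntn3 was not called.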

How the data were processed

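Per the labels, total RNA from mouse tissue was labelled with biotin and hybridised to Affymetrix mouse expression arrays. The authors deposited normalized log2 values for 18328 custom probe sets; the 2 deposited tables held identical values. How intensities were summarised and normalized was not given in the sources used here. Arrays were grouped by title and genotype. Probe sets were named through their gene identifiers in a RefSeq table (GRCm38.p6, 17226 with 1 gene), and the probe set with the highest mean was kept per gene (17297 features, 16195 named genes). The number of arrays limits the precision, and no detection calls were used, so low levels are not marked as such by the arrays.

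For the tests, limma (version 3.58.1, R version 4.3.3) estimated the 6 group means from the 32 arrays together (lmFit, eBayes; two-sided; adjusted p under 0.05, Benjamini-Hochberg over all features), with 7 contrasts, and was tested on simulated data. Models of different sets were compared through their differences from forebrain. Values in every array are printed for up to 5 called, non-overlapping members per direction and comparison, for members called between models and for a few others named for an array that stands apart, the last chosen after their values were seen. Path genes are up to 3 per direction. Members, families, path lists, markers and tests were chosen with earlier results of these data known. Alternatives were median-centred or quantile-normalized arrays, the compared groups or the set alone, every probe set or their mean, a filter on low means, array weights, a variance trend, stricter thresholds, a replicate block and leaving out each array.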

Additional observations from a re-analysis of the deposited data

Results flagged for a closer look

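Among 248 groups of 4 or 9 arrays (the 62 genes matched by name, in 4 groups), 15 held 1 array far from the others (6.05%), and chance alone flags about 1 in 20. In cis p53/Nf1 gliomas, glioma 8 read 6.95 for Dcc (others 8.35 to 9.45) and 9.30 for Efna4 (others 6.66 to 7.83), and glioma 4 read 6.08 for Epha3 (others 5.27 to 5.60) and 8.70 for Sema3c (others 6.53 to 7.13). In p53 gliomas, glioma 1 read 5.12 for Epha3 (others 3.50 to 4.19) and 5.75 for Plxnb3 (others 7.69 to 8.86). Glioma 2 read 6.43 for Efnb1 (others 6.90 to 7.33) and 9.19 for Robo1 (others 9.88 to 10.6). Glioma 9 read 5.43 for Ephb4 (others 4.28 to 4.69), 5.23 for Sema4f (others 7.23 to 8.74) and 3.30 for Slit3 (others 4.81 to 6.05). In Z2 forebrain, array 3 read 7.92 for Sema4a (others 8.31 to 8.38), 7.95 for Sema5a (others 7.45 to 7.48) and 5.81 for Unc5b (others 4.90 to 4.97), and array 4 read 5.26 for Efna2 (others 5.74 to 5.79).

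Epha4 differed between models by a test of the difference itself: its change in cis p53/Nf1 gliomas minus that in p53 Nf1KO gliomas was -2.27 (adjusted p = 0.0451 in limma). The call was lost in 16 of 21 fits that left out 1 array, with median-centred arrays (adjusted p = 0.0502) and with a replicate block (adjusted p = 0.152). The 21 fits include the one without p53 glioma 1, an array outside this contrast, where the call held.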

How the results depend on the processing

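No called difference of a guidance gene reversed under any alternative. Median-centring, quantile normalization, array weights, the replicate block and leaving out an array of the compared groups could change these differences. The mean of a gene's probe sets could do so only for Nrp2 and Plxnc1. The other alternatives kept the same group means, so the direction was fixed in advance. The counts of 21 lower members in cis p53/Nf1 gliomas and of 9 higher members in p53 gliomas stayed within 1.5 times under every alternative that kept all arrays. With array weights the counts became 15 higher in cis p53/Nf1 gliomas, 3 higher and 10 lower in p53 Nf1KO gliomas, 11 higher and 21 lower in cerebellum, and 5 and 7 calls for the cis p53/Nf1 change against the p53 and the p53 Nf1KO change. At an adjusted p under 0.01 they became 4 higher in cis p53/Nf1, 10 lower in p53, 0 and 0 in p53 Nf1KO gliomas, 1 higher and 0 lower in cerebellum, and 0 for the cis against Nf1KO change. With Z2 fitted alone they became 0 and 0 in p53 Nf1KO gliomas and 1 lower in cerebellum. Quantile normalization gave 4 lower in p53 Nf1KO gliomas and 1 and 2 calls between changes, median-centring 2 lower and 0 for the cis against Nf1KO change, the filter on low means 2 lower and 2, the compared groups alone 1 higher in cerebellum and 4 for the cis against Nf1KO change, and a 2-fold minimum 0 lower in p53 Nf1KO gliomas. The shares of all features called under each alternative were not set beside these counts, and the causes were not tested. Fitting 1 set alone was not run for comparisons between sets.

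Leaving out 1 array gave 17 to 22 lower and 5 to 9 higher in cis p53/Nf1, 16 to 23 and 9 to 12 in p53, 0 to 9 and 0 to 1 in p53 Nf1KO gliomas, and 0 to 9 and 1 to 4 in cerebellum, with 0 to 2 calls for p53 Nf1KO against p53 gliomas, 0 to 1 for the cis against p53 change and 0 to 3 for the cis against Nf1KO change. The fit with 3 calls for the cis against Nf1KO change left out p53 glioma 1, an array outside that contrast. For the fits that left out 1 array, shares of all features were not set beside the counts. Setting p53 glioma 1 aside moved the called p53 members without overlap from 7 to 19.

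Replicate numbers are shared between groups, but in no pair of compared groups did every same-numbered pair correlate above 0.1. The correlations of deviations were 0.019 to 0.067 between cis p53/Nf1 gliomas and Z1 forebrain, -0.093 to 0.002 between p53 gliomas and Z2 forebrain, -0.105 to 0.375 between p53 Nf1KO gliomas and Z2 forebrain and -0.074 to 0.336 between Z2 forebrain and cerebellum, so the numbers were not taken to pair the arrays. With the replicate block, 12 members were lower in p53 gliomas, 0 higher in p53 Nf1KO gliomas and 0 differed for the cis against Nf1KO change. In cis p53/Nf1 gliomas 7 were higher and 15 lower, 21 of them among the 28 calls without the block.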
